A study of Mus musculus with 2 samples.

Results

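The Mir378 genes of the mouse, Mir378a, Mir378b, Mir378c and Mir378d, were examined in microRNA sequencing of the neonatal heart. The members are the genes that carry these 4 symbols in GENCODE M21, and they are 4 of the 2202 miRNA genes in the tables. They share a number in their names but not a locus, and mature sequences were compared for 3 of them. Of the 4, Mir378a alone lies inside Ppargc1b.

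Hearts came from 2 male mice of the B6CASTF1/J strain, a first-generation cross of C57BL/6J and CAST/EiJ, at 4 days after birth, with 1 library per animal. No treatment is named in the labels, both libraries belong to the same group, and the design holds no comparison between conditions. The libraries, called replicates 1 and 2 as in the labels, are described as separate numbered males under a common donor identifier. If they did not come from separate animals, the spread between them is technical.

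MicroRNAs are cut from hairpin precursors, and the arm that enters the silencing complex recognises target transcripts mainly through its seed, bases 2 to 8 from the 5′ end. Mir378a sits in an intron of Ppargc1b, which encodes PGC-1β, a coactivator of nuclear receptors that drives genes of mitochondrial respiration and fatty acid oxidation. Products of Mir378a are known in the mouse as regulators of mitochondrial metabolism and, in cardiac muscle cells, of growth factor signalling and survival.

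RefSeq sequences (GRCm38.p6) were at hand for 3 of the 4 genes, Mir378b, Mir378c and Mir378d, and their hairpin positions were those of GENCODE M21 in 3 of 3 cases. The mature sequences are printed 5′ to 3′ with the seed in capitals, because the seeds show how the lesser members differ from each other.
miR-378b: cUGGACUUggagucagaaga
miR-378c: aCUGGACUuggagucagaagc
miR-378d: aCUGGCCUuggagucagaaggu

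The 3 mature sequences held a common run of 14 bases, CUUGGAGUCAGAAG. Among 1005 mouse hairpins with a RefSeq sequence, these 3 (0.299%) contained that run, and 0 contained it on the opposite strand. The seeds were all different. miR-378b begins 1 base further into the shared sequence than miR-378c, so that its seed is shifted by that base. With the first base of miR-378b set beside the second base of miR-378c, 19 of 20 bases were identical and the only difference was A20C, counted from the 5′ end of miR-378b. miR-378c and miR-378d start at the same base and were identical at 19 of 21 positions, with the differences A6C and C21G counted from the 5′ end of miR-378c. The former lies in the seed. Of the 1738 mature sequences in the table, no other had any of these 3 seeds at bases 2 to 8. Mir378a was not part of these sequence comparisons, so its likeness to the other members was not tested. Whether its mature sequences hold the common run or one of these seeds was not tested either.

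The hairpins themselves are printed with the mature sequence in capitals, because they differ in which arm carries it.
Mir378b: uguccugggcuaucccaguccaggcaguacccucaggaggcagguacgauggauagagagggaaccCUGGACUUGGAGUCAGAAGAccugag
Mir378c: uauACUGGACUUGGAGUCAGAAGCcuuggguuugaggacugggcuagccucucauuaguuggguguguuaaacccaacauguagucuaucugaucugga
Mir378d: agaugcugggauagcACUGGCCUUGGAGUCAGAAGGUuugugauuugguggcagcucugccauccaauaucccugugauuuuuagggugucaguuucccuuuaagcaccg

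The mature sequence occupies bases 67 to 86 of the 92-base Mir378b hairpin, on its 3′ arm. It occupies bases 4 to 24 of the 99-base Mir378c hairpin and bases 16 to 37 of the 110-base Mir378d hairpin, on the 5′ arm of both. The longest run shared by any pair of hairpins was 19 bases, between Mir378b and Mir378c, and lay in their mature sequences. Sequence outside the mature part was not compared by itself. The other pairs shared at most 14 bases. No pair of these 3 hairpins therefore shared a 20-base window, whereas Mir378b and Mir378c shared 3 windows of 17 bases. A read cut short to that length cannot be told apart between them, and reads that map to several places are in no gene's count.

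The predicted folds of these hairpins (RNAfold minimum free energy) were less stable per base than most. Mir378b had -31.1 kcal/mol, or -0.34 per base, Mir378c had -27.0 kcal/mol, or -0.27 per base, and Mir378d had -35.0 kcal/mol, or -0.32 per base. The median of the 1005 hairpins was -0.41 kcal/mol per base, and 75.8%, 93.1% and 82.8% of them were more stable per base than Mir378b, Mir378c and Mir378d. In the predicted structures 15 of the 20 mature bases of miR-378b were paired, 15 of 21 in miR-378c and 13 of 22 in miR-378d.

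The loci lie on separate chromosomes (mm10). The Mir378a hairpin, ENSMUSG00000105200.1, spans chromosome 18, 61397835 to 61397900 on the minus strand. It lies in the first intron of all 3 Ppargc1b transcripts that span it, on the same strand and 2531 bases from the annotated start of the gene. Mir378b, ENSMUSG00000092985.1, spans chromosome 11, 88352773 to 88352864 on the plus strand. It lies within an intron of Msi2, which encodes an RNA-binding protein of the Musashi family, but on the opposite strand. Mir378c, ENSMUSG00000099036.1, spans chromosome 14, 46954830 to 46954928 on the minus strand. It too is opposite to its surrounding gene, Samd4, which encodes an RNA-binding repressor of translation, and lies in an intron of 4 of its transcripts. Mir378d, ENSMUSG00000098756.1, spans chromosome 10, 126710282 to 126710391 on the minus strand, outside other genes, with the lincRNA gene Gm47966 nearest at 3614 bases. Only Mir378a is thus placed in a protein-coding transcript of its own strand.

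The libraries held 4196577 and 3801738 counts on the genes' own strand, called sense counts, in replicates 1 and 2. These were 43.8% and 40.9% of all reads in the tables, while 38.1% and 42.3% mapped to several places and were assigned to no gene. Levels are sense counts scaled to the library total (CPM, counts per 1e6), in which 1 read was worth 0.238 and 0.263 CPM. A count covers every read in the annotated hairpin, so the arms of a hairpin cannot be separated. Reads span whole small RNAs, so no scaling by gene length was made. Intervals are at the 95% level and cover counting error only, since reads of an amplified library are not independent molecules.

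Cardiac markers were abundant in these libraries. Mir499, Mir208b and Mir208a, encoded in introns of myosin heavy chain genes, summed to 13054 CPM in replicate 1 and 8858 CPM in replicate 2. The skeletal muscle genes Mir206 and Mir133b summed to 34.1 and 40.0 CPM. Mir126a of endothelium had 109199 and 49330 CPM, and the smooth muscle genes Mir143 and Mir145a summed to 48576 and 79468 CPM. The white blood cell genes summed to 1478 and 1542 CPM, the red blood cell genes to 351 and 297 CPM, and Mir122 of liver had 309 and 105 CPM. Of the 6 neuronal genes, 4 (the 3 Mir124a genes and Mir9-2) had 0 counts in both libraries, and the list summed to 0.238 and 22.1 CPM. Nearly all of that sum was Mir9-3, with 1 and 82 counts, or 0.238 and 21.6 CPM. Both neuronal miRNAs and miR-133, counted here through Mir133b, have several gene copies, and reads that map to several places are in no gene's count. Low counts of these genes therefore cannot show absence. The part of these cell types in the Mir378 levels was not tested.

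Nearly all reads assigned to a Mir378 gene were assigned to Mir378a. It had 490847 sense counts in replicate 1 and 451160 in replicate 2, or 116964 CPM (Wilson interval 116657 to 117271) and 118672 CPM (118347 to 118998). Both values place it first among the 2202 genes by reads assigned to a single gene. The 3657699 and 3929811 reads that map to several places are outside this order, and multi-copy miRNAs may stand too low in it. The mean was 117818 ± 1208 CPM (SD, n = 2), a coefficient of variation of 1.03%. That small spread belongs to the scale of total sense counts, and the SD of the mean level was 15347 CPM with scaling by the trimmed mean of M-values (TMM) and 19303 CPM with DESeq2 size factors.

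The gene next below Mir378a was not the same in both libraries. In replicate 1 Mir126a followed at 109199 CPM, and Mir378a exceeded it 1.07-fold (exact interval 1.067 to 1.075). In replicate 2 Mirlet7i, a let-7 gene, followed at 92532 CPM, and Mir378a exceeded it 1.28-fold (1.277 to 1.288). By mean level the next genes were Mirlet7i at 90394 ± 3025 CPM, Mir126a at 79265 ± 42334 CPM and Mirlet7g at 75736 ± 6475 CPM (SD, n = 2). Mir143 at 60273 ± 18664 CPM and Mir23b at 45281 ± 7312 CPM came after them. Mir378a lay above Mirlet7i by more than either gene's SD. Mir378a lay above Mir126a within each library, 1.07-fold in replicate 1 and 2.41-fold in replicate 2. The SD of Mir126a was more than its distance to Mir378a, so the size of the difference is uncertain.

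Mir378d was the second of the family. It had 189 sense counts in replicate 1 and 226 in replicate 2, or 45.0 CPM (Wilson interval 39.1 to 51.9) and 59.4 CPM (52.2 to 67.7). These values stood at ranks 212 and 189. The mean was 52.2 ± 10.2 CPM (SD, n = 2).

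Mir378c had 144 sense counts in replicate 1 and 136 in replicate 2, or 34.3 CPM (29.1 to 40.4) and 35.8 CPM (30.2 to 42.3). The libraries gave nearly the same level, at ranks 225 and 213 and with a mean of 35.0 ± 1.03 CPM (SD, n = 2). Mir378b was the lowest, with 21 and 16 sense counts, or 5.00 CPM (3.27 to 7.65) and 4.21 CPM (2.59 to 6.84). Its ranks were 319 and 322, and its mean was 4.61 ± 0.56 CPM (SD, n = 2). A count of 0 would still allow 3 counts, or 0.715 and 0.789 CPM, and all 4 members lay above that limit in both libraries.

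**Figure D1:**
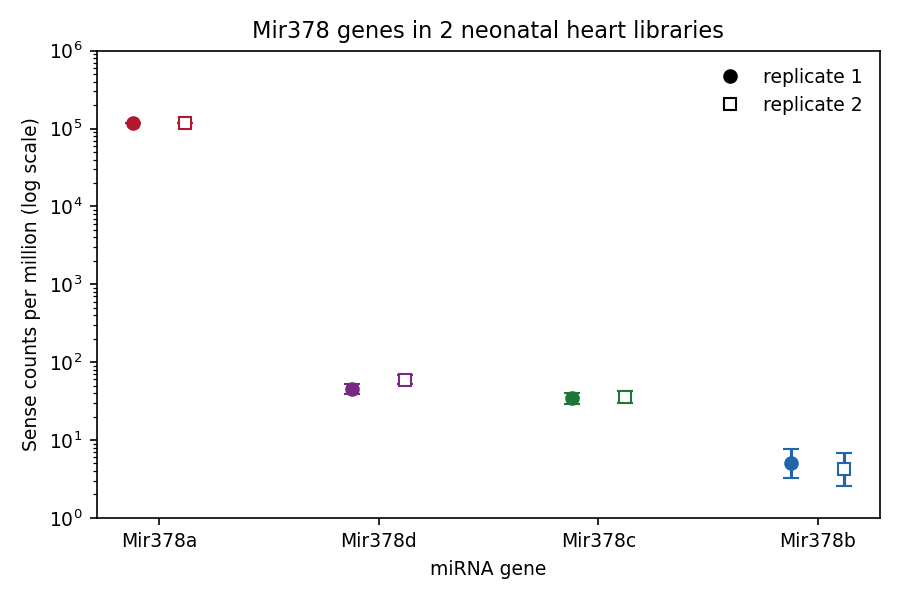
Sense CPM (log axis) of the 4 Mir378 genes in replicate 1 (filled circles) and replicate 2 (open squares), with 95% Wilson intervals of counting error. Mir378a sits at 116964 and 118672 CPM, and the other genes lie between 4.21 and 59.4 CPM.

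The order Mir378a, Mir378d, Mir378c, Mir378b was the same in both libraries. Mir378a exceeded Mir378d 2597-fold in replicate 1 (exact interval 2252 to 3011) and 1996-fold in replicate 2 (1752 to 2285). It exceeded Mir378c 3409-fold (2895 to 4042) and 3317-fold (2804 to 3954), a log2 fold of 11.72 ± 0.03 (SD, n = 2). Against Mir378b the folds were 23374 (15291 to 37760) and 28198 (17364 to 49332), with wide intervals because of the 21 and 16 counts behind them. Mir378a alone made up 99.9% of the family's sense counts in each library. The other 3 genes together made up 0.072% (Wilson interval 0.065 to 0.080) and 0.084% (0.076 to 0.093). Reads that map to several places are not part of these shares.

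Among the lesser members, Mir378d and Mir378c were close and Mir378b lay further below. Mir378d exceeded Mir378c 1.31-fold in replicate 1 (1.05 to 1.64) and 1.66-fold in replicate 2 (1.34 to 2.07). The log2 fold was 0.56 ± 0.24 (SD, n = 2), so Mir378d lay above Mir378c in both libraries but by an amount that differed between them. Mir378c exceeded Mir378b 6.86-fold (4.32 to 11.4) and 8.50-fold (5.05 to 15.3). Mir378d exceeded Mir378b 9.0-fold (5.72 to 14.9) and 14.1-fold (8.51 to 25.1). Mir378b, Mir378c and Mir378d together had 354 and 378 counts beside the 490847 and 451160 of Mir378a, and whether some of these are misassigned reads of Mir378a was not tested. These are ratios of reads of different sequences, and a bias common to both libraries would not widen their spread.

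The lesser members were nevertheless above most annotated miRNA genes. A mean at or above that of Mir378b was reached by 321 of 2202 genes (14.6%), at or above that of Mir378c by 221 (10.04%) and at or above that of Mir378d by 203 (9.22%). Each library gave all 4 members at least 10 counts, which held for 344 of 2202 genes (15.6%), and 1458 genes had 0 counts in both. In the plot of level against rank, Mir378a is at the top of a steep initial fall and the other members are on the long lower slope.

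**Figure D2:**
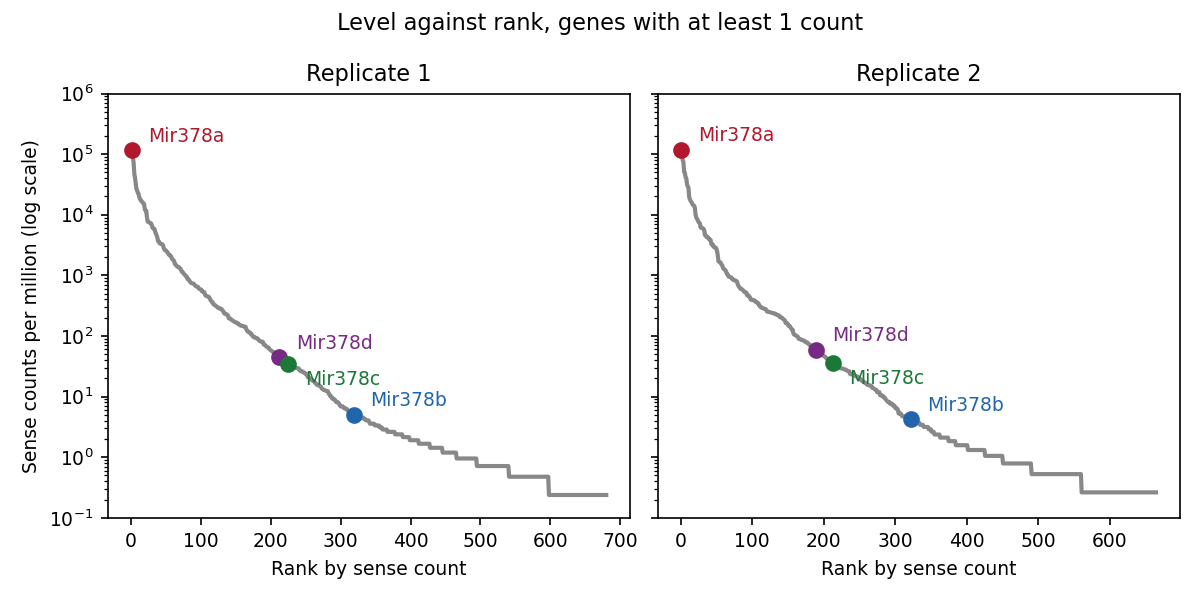
Sense CPM (log axis) against rank for every gene with at least 1 count in replicate 1 (680 genes) and replicate 2 (665 genes), with the Mir378 genes as coloured points. Mir378a is at rank 1 in both libraries, and Mir378d, Mir378c and Mir378b lie between ranks 189 and 322.

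Placement relative to other genes was compared over the whole table, a description added after the values were seen. Of the 1179 genes inside another gene on its own strand, as Mir378a is, 234 (19.8%) had 10 or more counts in each library, with a median of 115 CPM among them. Mir378a took 14.4% and 15.3% of all counts of this class. Of the 325 genes that lie in a gene on the opposite strand alone, as Mir378b and Mir378c do, 23 (7.08%) reached that count, with a median of 31.2 CPM. The 698 genes outside other genes, as Mir378d is, had 87 such genes (12.5%) and a median of 104 CPM. Among the genes of their class that reached that count, Mir378c stood near the median and Mir378b and Mir378d stood below it.

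Several other numbered groups were also carried by a single gene. Groups of 3 or more miRNA genes that share a number in their names, with a summed mean of at least 1000 CPM, were taken after the values were seen, and 12 such groups were found. The leading gene held a median of 91.3% of its group's level. Mir378a, at 99.9%, stood after 2 of the 12, Mir21a among the Mir21 genes and Mir28a among the Mir28 genes. At the other end the let-7 genes and the Mir30 genes were spread over several members, with 41.7% for Mirlet7i and 45.0% for Mir30d. A shared number does not always mean related sequence, and groups with near-identical hairpins lose reads that map to several places.

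**Figure D3:**
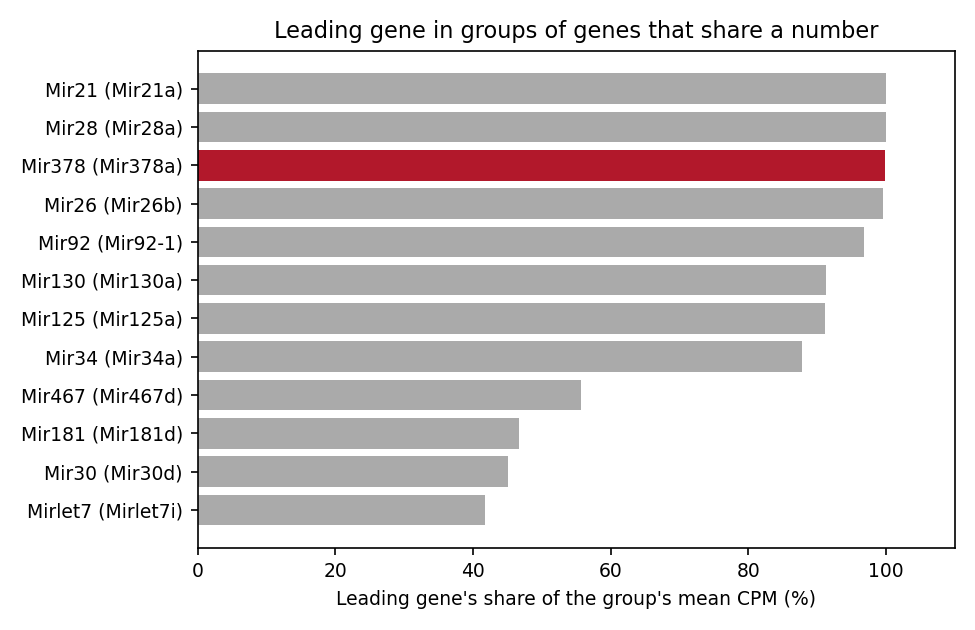
Share (%) of the mean CPM held by the leading gene, named in parentheses, in each of 12 groups of miRNA genes that share a number. The Mir378 bar (red) reaches 99.9%, and the bars run down to 41.7% for let-7.

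Strand decided whether Mir378a was seen at all. A second annotated hairpin, Gm25301 (ENSMUSG00000093026.1), lies over it on the plus strand at chromosome 18, 61397813 to 61397925. In the counts that ignore strand, Mir378a had 0 counts in both libraries, since reads over both hairpins are set aside there as ambiguous. The sense counts of Mir378a equalled 44.8% and 58.9% of the 1096846 and 766383 reads that were ambiguous without strand.

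Reads on the plus strand were almost absent at this locus. Gm25301 had 0 sense counts in replicate 1 and 1 in replicate 2, so it was not detected above the limit of 3 counts in either library. The opposite-strand counts of Gm25301, 490847 and 451161, were the Mir378a reads seen from the other side. Mir378a was not alone in this: 24 of those 344 genes had 0 counts without strand in both. Mir378b, Mir378c and Mir378d had the same counts with and without regard to strand, and 0 counts on their opposite strands.

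Mir378a and Mir378c took nearly the same share of each library. The log2 ratio of replicate 2 to replicate 1, computed on CPM plus 1, was 0.02 for Mir378a, 0.06 for Mir378c, -0.21 for Mir378b and 0.39 for Mir378d. The median absolute log2 ratio of the 441 genes with 10 or more counts over both libraries was 0.50, and that of the 20 most abundant genes was 0.28. Ratios as close to 0 as that of Mir378a were found for 11 of the 441 genes, Mir378a included, and 1 of the 20 most abundant genes was closer to 0.

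The libraries were compared gene by gene by Fisher's exact test, two-sided and adjusted over the 441 genes by the Benjamini-Hochberg method. It compares 2 libraries and not conditions. At an adjusted p under 0.05 it called 2 of the 4 members, both higher in replicate 2, beside 56.9% of all tested genes in either direction and 20.4% in that direction. Mir378a was called at an adjusted p of 2.59e-13 (Fisher's exact test) although its CPM differed by far less than the median gene's with 490847 and 451160 counts behind it. Mir378d was called at an adjusted p of 0.00998 (Fisher's exact test), from 45.0 and 59.4 CPM. Mir378c (adjusted p = 0.824) and Mir378b (adjusted p = 0.718, both Fisher's exact test) were not called. In a bulk heart library, fewer cells of a type and less RNA per cell cannot be told apart.

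The Fisher test takes counting error as the only error. The spread beyond it, estimated with edgeR over the 344 genes counted at least 10 times in each, was a biological coefficient of variation of 0.379. With that spread, edgeR's exact test called 0 of the 4 members, with adjusted p-values of 1 throughout, and 3 of 441 genes (0.68%), with 27 genes (6.12%) at an unadjusted p under 0.05. That spread comes from the same 2 libraries, so few calls are built into the test. The 2 calls by Fisher's test among the Mir378 genes show differences beyond counting error only, and whether they exceed the spread between animals cannot be tested with 1 library each.

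The ratios also moved with the scaling. The median log2 ratio of the tested genes was -0.26. TMM scaling raised log2 ratios by 0.24, and DESeq2 size factors raised them by 0.31. With TMM the ratios were 0.27 for Mir378a, 0.30 for Mir378c and 0.63 for Mir378d, and that of Mir378b was near 0. The closeness of Mir378a to 0 thus depended on the scale, and without the 10 most abundant other genes in the total its ratio was 0.09. Over all genes, Fisher's test called 90 genes higher and 161 lower in replicate 2. With scaled totals an exact binomial test took its place, so scaling and test changed together. It called 124 higher and 116 lower with TMM, and 136 and 104 with DESeq2 size factors.

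**Figure D4:**
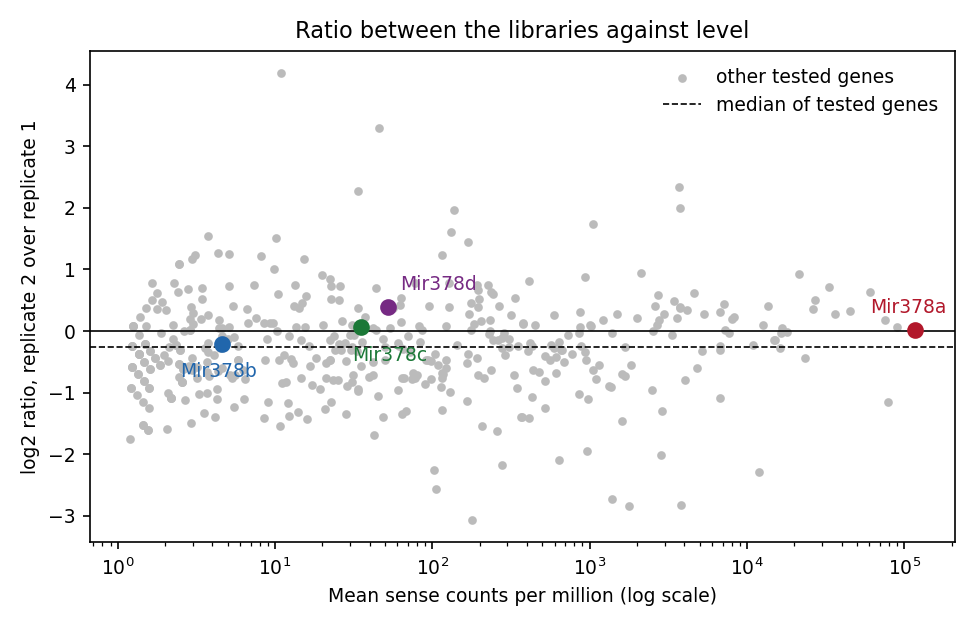
The log2 ratio of replicate 2 to replicate 1 against mean sense CPM (log axis) for the 441 tested genes (grey) and the Mir378 genes (coloured). The solid line marks 0 and the dashed line the median of tested genes, -0.26; Mir378a is at the far right at 0.02.

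The cardiac muscle markers were higher in replicate 1 on the scale of total counts. Mir208a, in an intron of the myosin gene Myh6, had 2091 and 1259 CPM in replicates 1 and 2. Mir208b, in an intron of Myh7, had 5169 and 2965 CPM, and Mir499, in an intron of Myh7b, had 5794 and 4633 CPM. Fisher's exact test called all 3 lower in replicate 2, with log2 ratios of -0.73, -0.80 and -0.32, and of -0.49, -0.56 and -0.08 with TMM scaling. Of all tested genes 36.5% were called lower. Mir378a was 8.96 times the sum of these genes in replicate 1 and 13.4 times in replicate 2.

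The wider striated muscle list, 9 of whose 10 genes were tested, had 2 genes higher and 3 lower in replicate 2, with a median log2 ratio of -0.20 beside -0.26 for all tested genes. These counts are near the shares of all tested genes, 20.4% higher and 36.5% lower. After the 3 myosin-intron genes its most abundant member was Mir1a-2, with 33.1 and 54.4 CPM, a level like that of Mir378d. Copies of miR-1 and miR-133 in the genome are near-identical, so these values are uncertain.

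Genes tied to lipid and energy metabolism were taken as a list for the setting of Mir378a. All 13 were tested, 3 were higher in replicate 2, 3 were lower and the median log2 ratio was 0.07, beside 20.4% higher, 36.5% lower and a median of -0.26 over all tested genes. Mir335, hosted by the imprinted Mest, led with 25227 and 41303 CPM and a log2 ratio of 0.71. Mir27b, which acts on lipid metabolism genes, had 5797 and 3842 CPM and fell by 0.59 on the log2 scale. Mir107, in an intron of the pantothenate kinase gene Pank1, had 3653 and 5610 CPM and a log2 ratio of 0.62, and Mir455 had 847 and 887 CPM and was not called. Mir33, in an intron of the sterol regulator gene Srebf2, had 12.2 and 16.0 CPM, between Mir378b and Mir378c. The level of Mir378a was 3.17 times the sum of the list in replicate 1 and 2.25 times in replicate 2. The list holds gene copies, Mir103-1 with Mir103-2 and Mir365-1 with Mir365-2, and reads that map to several places are in no gene's count. The sum may therefore be too low and these folds too high.

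The genes whose levels were nearest to each member in both libraries were found by the Euclidean distance of log2(CPM + 1) over the 2 libraries, which places genes of like level beside each other and says nothing more. For Mir378a they were Mirlet7i at 0.54, Mirlet7g at 0.91, Mir126a at 1.27, Mir143 at 1.48 and Mir23b at 1.98, all wider than the nearest distances of the other members. For Mir378d the nearest were Mir467c at 0.15 and Mir1198 at 0.26, followed by Mir32, Mir24-1 and Mir196b. For Mir378c the nearest was Mir412 at 0.04, with 35.3 and 36.3 CPM, followed by Mir664, Mir103-2, Mir376b and Mir206. For Mir378b the nearest were Mir3080 at 0.07 and Mir200a at 0.09, followed by Mir211, Mir1291 and Mir6934.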

How the data were processed

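The authors deposited 1 table of raw read counts per miRNA gene for each of the 2 libraries, on mm10 and GENCODE M21, as their description files state. No aligner or counter is named in the sources used here. Each table has counts without regard to strand, on the gene's strand and on the opposite strand; the second of these was used, and its assignment to strand was read from the values. Lines that name no gene (multi-mapped, unmapped and unassigned reads, 56.2% and 59.1% of reads) were left out of totals and tests. Reads of CAST alleles that differ from mm10 may be lost, which was not tested.

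All 2202 gene IDs matched GENCODE M21. CPM, Wilson intervals and exact folds were computed with Python 3.11.15 and SciPy 1.17.1. The 441 genes with 10 or more counts over both libraries entered Fisher's exact test. It was checked on simulated counts with counting error alone, a check that does not cover the wider spread between these libraries. edgeR 4.0.16 gave TMM factors, the spread and the exact test, and DESeq2 1.42.0 gave size factors; with 1 library a side, quasi-likelihood testing leaves no residual degrees of freedom. Folding used RNAfold 2.7.2. Hairpin windows of 20 bases were compared among RefSeq hairpins. Genes named by rule are the 4 members, the 5 most abundant others and the 5 nearest to each member in level. The rule also takes genes overlapping or within 10 kb of a member, the most abundant of each list and cell type markers. Mir33 and the leading genes of some numbered groups were named outside this rule. Members and lists were chosen with earlier results of these data known.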

Additional observations from a re-analysis of the deposited data

How the results depend on the processing

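The mean of Mir378a, 117818 CPM, was 49862 CPM over every read in the tables, 60424 CPM with multi-mapped reads in the total, 234481 CPM without the 10 most abundant other genes in the total, and 0 with counts without regard to strand. The 4 genes summed to 117910 CPM, and to 49901, 60471, 234664 and 119 CPM under these settings. TMM and DESeq2 scaling moved the mean of each member by less than its SD. These scalings lower replicate 1 and raise replicate 2 by like amounts, so the mean could hardly move. The SD of Mir378a rose from 1208 to 15347 CPM with TMM and 19303 CPM with DESeq2 scaling. That of Mir378b fell from 0.562 to 0.012 and 0.141 CPM. Without replicate 1 or 2, Mir378a ranged from 116964 to 118672 CPM and the sum from 117048 to 118771 CPM. The log2 ratio of Mir378a, 0.0209, was no longer called with edgeR's exact test (adjusted p = 1), and it could not be computed without strand. Mir378d lost its call with that test and with counts without regard to strand (log2 ratio 0.28, adjusted p = 0.0725 by Fisher's exact test). The ratio of Mir378b turned to 0.0516 with DESeq2 scaling and that of Mir378c to -0.0511 without strand; neither was called there. Mir378b has too few reads to be tested with a minimum of 50 counts. The main test called 251 of 441 genes and edgeR's exact test 3 of 441. The exact binomial test called 240 of 441 with TMM scaling and as many with DESeq2 scaling. Fisher's test called 238 of 744 with no count minimum and 237 of 305 with a minimum of 50 counts. It called 237 of 414 without strand and 241 of 431 without the 10 most abundant other genes. With windows of 17 bases 1 pair of hairpins shared sequence, Mir378b with Mir378c, and with 20 or 24 bases 0 pairs did. No paired analysis was possible because both libraries belong to a single group. Depth limits Mir378b most, with 21 and 16 counts.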
